A study of Homo sapiens with 4 samples.

Results

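PELP1 and 8 proteins that work with it in the nucleolus were followed at the transcript level in Daoy cells after PELP1 was silenced. The genes were chosen by name, as the targeted gene PELP1, the complex partners TEX10, WDR18, SENP3 and LAS1L, the ribosome assembly enzymes NOL9 and MDN1, and CHTOP with its methyltransferase PRMT1. All 9 had a row among 23228 genes, and all 9 passed the filter on low counts, which left 14972 genes to test. Daoy is an established human medulloblastoma line. The PELP1 shRNA group held 2 libraries from cells stably expressing a lentiviral shRNA against PELP1, and the control shRNA group held 2 libraries from cells carrying a control shRNA by the same route, both grown in DMEM with serum. The labels name 1 PELP1 shRNA and say neither whether the lines were clones nor whether the duplicates, which the design text calls duplicate runs, came from separate cultures, so the p-values reflect only how far these duplicates differed, and that difference may be technical. The series title frames the study as a question about PELP1, medulloblastoma progression and the NF-κB pathway.

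PELP1 is a large scaffold protein with motifs that bind nuclear receptors. With TEX10 and WDR18 it forms the core of the mammalian counterpart of the yeast Rix1 complex, which joins the precursor of the large ribosomal subunit in the nucleolus and nucleoplasm. The SUMO protease SENP3, the endonuclease LAS1L and the polynucleotide kinase NOL9 associate with that core, and LAS1L and NOL9 cut and phosphorylate the internal spacer of the ribosomal RNA precursor. The giant ATPase MDN1 then strips assembly factors from the particle. PELP1, TEX10, WDR18, SENP3 and LAS1L have also been described as a complex that binds CHTOP, a chromatin and mRNA export protein, once PRMT1 has methylated its arginines. The measurements here are read counts of annotated genes in total RNA, and neither ribosomal RNA processing nor protein was measured.

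Counts in genes came to 29221640 and 26760085 in the PELP1 shRNA libraries and to 24052542 and 26629578 in the control shRNA libraries. Levels are given as TMM-scaled CPM, read counts relative to the library total, in which a normalisation factor per library evens out differences in composition. Of 20 fixed markers of medulloblastoma and cerebellar granule progenitors, 17 reached 1 CPM with the PELP1 shRNA and 15 with the control shRNA. ATOH1, BARHL1 and NEUROD1, which define the granule lineage, stayed under 1 CPM in every library. Summed levels of that list were 4665 to 4666 CPM with the PELP1 shRNA and 6416 to 6559 CPM with the control shRNA. For 8 fibroblast and mesenchymal markers the sums were 4031 to 4326 and 5146 to 5475 CPM in the same order of groups, and for 6 epithelial markers they were 831 to 854 and 568 to 583 CPM. Sums were low for 9 neuron and glia markers (37.99 to 60.9 with the PELP1 shRNA and 26.6 to 55.7 CPM with the control shRNA), for 8 blood cell markers (61.0 to 61.2 and 59.3 to 61.5 CPM) and for 5 endothelial markers (9.03 to 9.08 and 26.7 to 27.5 CPM). The sums rested mostly on a few genes and do not describe a list as a whole. In the same order of groups, VIM stood at 3894 and 5548 CPM and CD68 at 57.8 and 58.1 CPM. Among endothelial markers TEK stood at 3.28 and 23.6 CPM. The other endothelial markers were scarce. CDH5 was also called lower, at 0.278 and 0.741 CPM. PECAM1 (1.83 and 0.371 CPM) and VWF (1.55 and 0.719 CPM) were called higher, and KDR was not called. COL1A2 stood at 132 and 1495 CPM, while COL1A1 went the other way, at 3725 and 3284 CPM. No marker list had a member at 0 in all 4 libraries, and the part of these differences in the results below was not tested. In bulk RNA, fewer cells of one kind and less RNA per cell cannot be told apart.

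PELP1 was the only one of the 9 genes whose level changed by more than 1.5-fold. PELP1 had 1677 and 1370 counts in the PELP1 shRNA libraries and 3932 and 4766 counts in the control shRNA libraries, or 55.6 and 49.7 CPM against 168 and 185 CPM. The groups were far apart, and the higher knockdown library lay well under the lower control. The log2 fold change was −1.75 ± 0.05 (SE, 95% interval −1.85 to −1.64, edgeR quasi-likelihood test, FDR = 1.54e-33), so that 29.8% of the control level remained. Tested against a 1.5-fold change with edgeR's glmTreat, PELP1 alone of the 9 passed, where 9.63% of all genes did and 4.9% were lower. In absolute size, 2.63% of tested genes moved more than PELP1. PELP1 occupies 4573069 to 4607632 of chromosome 17 (hg19, minus strand), and none of its exonic bases is shared with another gene that has a row.

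**Figure D1:**
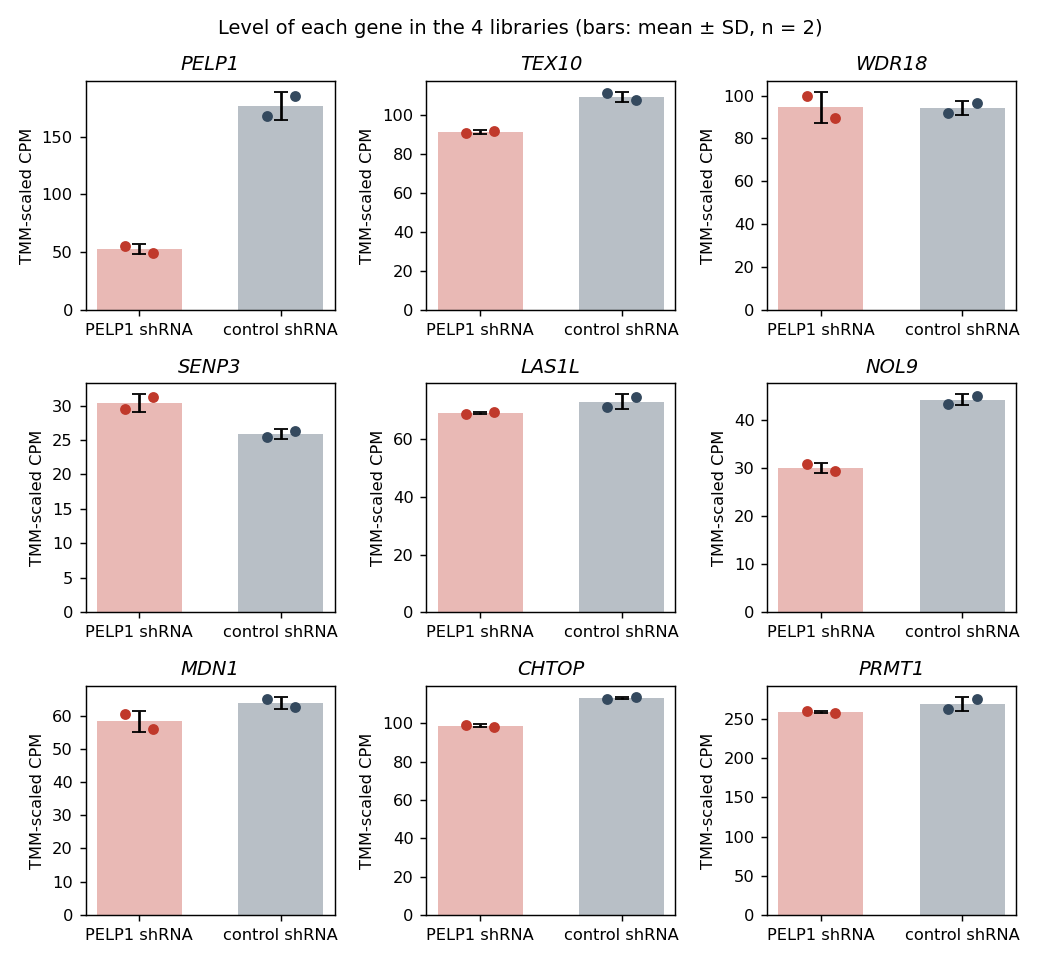
TMM-scaled CPM of the 9 genes (y axes from 0) in PELP1 shRNA libraries (left bar of each panel) and control shRNA libraries (right bar), with points for libraries and bars for mean ± SD (n = 2). PELP1 stood at 49.7 and 55.6 CPM against 168 and 185 CPM, and the other genes differed much less.

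Of the 9 genes, 5 were lower, 1 was higher and 3 did not pass the false discovery rate threshold of 0.05 (edgeR, Benjamini-Hochberg adjustment over all genes tested). The comparison called 58.1% of all tested genes, 29.5% lower and 28.6% higher, so 6 calls among 9 genes lie close to the background. Among the 8 partners, 4 were lower and 1 higher, with a median log2 fold change of −0.10 beside a median of 0.00 over all genes tested. Their median absolute change was 0.16, against 0.26 over all genes tested, which were not matched for level. Among the 6409 genes whose mean level lay within the range of the 9 genes, 49.1% moved more than CHTOP (absolute change 0.196). In 8 of 9 genes the libraries of the groups did not overlap, 7 lower and 1 higher, which was also so in 77.7% of all genes (38.7% lower and 39% higher).

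**Figure D2:**
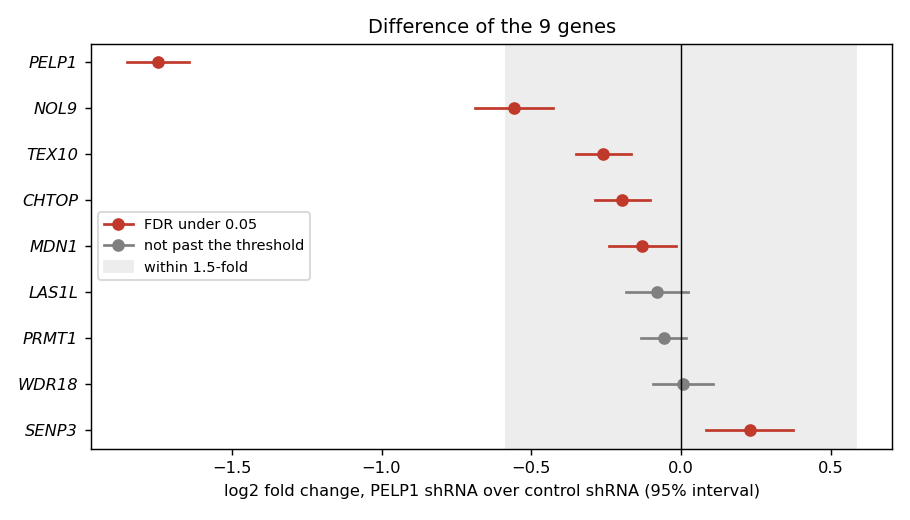
Log2 fold change of PELP1 shRNA over control shRNA (x axis) for each of the 9 genes, with the 95% interval as a line and differences within 1.5-fold shaded. PELP1 stood at −1.75, NOL9 at −0.56 and SENP3 at 0.23, and the intervals of WDR18, PRMT1 and LAS1L crossed 0.

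The other core subunits behaved differently from each other. TEX10, the counterpart of yeast Ipi1, had 90.8 and 92.0 CPM with the PELP1 shRNA and 111 and 108 CPM with the control shRNA. The knockdown libraries were both below both controls, and the log2 fold change was −0.26 ± 0.05 (SE, 95% interval −0.35 to −0.17, edgeR FDR = 2.52e-06). WDR18, a WD-repeat protein and the counterpart of yeast Ipi3, had 99.6 and 89.4 CPM with the PELP1 shRNA and 91.8 and 96.4 CPM with the control shRNA. The groups overlapped, and WDR18 stood at 0.01 ± 0.05 (SE, edgeR FDR = 0.919). Its 95% interval of −0.09 to 0.11 leaves room for changes of that size in either direction. TEX10, at 103064359 to 103115224 of chromosome 9 (minus strand), shares 99 exonic bases with INVS on the other strand. INVS had a log2 fold change of −0.10 ± 0.07 (SE, edgeR FDR = 0.236).

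Of the enzymes of spacer processing, NOL9 fell and LAS1L did not pass the test. NOL9 had 927 and 807 counts with the PELP1 shRNA and 1013 and 1156 counts with the control shRNA, or 30.7 and 29.3 CPM against 43.3 and 44.9 CPM. Both knockdown libraries were below both controls, and the log2 fold change of −0.56 ± 0.07 (SE, 95% interval −0.69 to −0.43, edgeR FDR = 4.82e-11) left 68.0% of the control level. This was the biggest difference among the 8 partners, and 22% of all tested genes moved more than NOL9. Among the 6409 genes whose mean level lay within the range of the 9 genes, 10.2% moved more than NOL9 and 38.8% more than TEX10. LAS1L had 68.8 and 69.3 CPM with the PELP1 shRNA and 71.1 and 74.7 CPM with the control shRNA. The LAS1L groups did not overlap but differed by only −0.08 ± 0.05 on the log2 scale (SE, 95% interval −0.18 to 0.02, edgeR FDR = 0.187). NOL9 lies on chromosome 1 (6581407 to 6614573) and LAS1L on chromosome X (64658429 to 64754690), both on the minus strand.

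MDN1, the AAA ATPase related to dynein, had 60.6 and 56.1 CPM with the PELP1 shRNA and 65.1 and 62.5 CPM with the control shRNA. The knockdown libraries were lower by a small margin, and the log2 fold change was −0.13 ± 0.06 (SE, 95% interval −0.24 to −0.02, edgeR FDR = 0.0414). That call was lost in 11 of 17 alternative analyses, among them the fits without PELP1 shRNA replicate 2 (−0.08, adjusted p = 0.368) and the one that leaves out control shRNA replicate 1 (adjusted p = 0.199), and it was lost with the replicate block (adjusted p = 0.0787). Over the 17 alternatives the adjusted p of MDN1 ranged from 0.0103 to 1.

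SENP3 was the only one of the 9 genes called higher after knockdown. It had 889 and 861 counts with the PELP1 shRNA and 593 and 678 counts with the control shRNA, or 29.5 and 31.2 CPM against 25.4 and 26.4 CPM. Both knockdown libraries were above both controls, and the log2 fold change was 0.23 ± 0.07 (SE, 95% interval 0.08 to 0.38, edgeR FDR = 0.00569). The call was lost with DESeq2 (adjusted p = 0.0702) and without PELP1 shRNA replicate 2 (0.19, adjusted p = 0.0871), and its adjusted p ranged from 9.21e-05 to 1 over the alternatives. SENP3 lies on the plus strand of chromosome 17 (7465236 to 7475287), directly before EIF4A1, which encodes a helicase of translation initiation (7476142 to 7482324). A read-through gene, SENP3-EIF4A1, spans both, and in GENCODE it holds 1511 of the 3625 exonic bases of SENP3, or 41.7%. EIF4A1 was listed at 0 in all 4 libraries, although 3731 of its exonic bases are unshared in GENCODE. The authors' annotation and counting mode are not given in the labels, so which reads over SENP3 were counted is not known. The read-through row had 15 and 18 counts with the PELP1 shRNA and 13 and 12 with the control shRNA. Adding the read-through row to SENP3 left a log2 fold change of 0.23 (edgeR adjusted p = 0.00556, chosen after the data were seen).

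CHTOP fell and PRMT1 did not pass the test. CHTOP had 99.3 and 98.4 CPM with the PELP1 shRNA and 113 and 114 CPM with the control shRNA. Within each group the libraries lay close together, the groups did not overlap, and the log2 fold change was −0.20 ± 0.05 (SE, 95% interval −0.29 to −0.10, edgeR FDR = 0.00019). PRMT1 was the most abundant of the 9 genes, with 260 and 258 CPM with the PELP1 shRNA and 263 and 276 CPM with the control shRNA. It differed by −0.06 ± 0.04 (SE, 95% interval −0.13 to 0.02, edgeR FDR = 0.193). CHTOP lies on chromosome 1 (153606458 to 153618782) and PRMT1 on chromosome 19 (50179043 to 50192286), both on the plus strand.

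The calls of partners depended on how much the duplicates are taken to vary. The biological coefficient of variation estimated from the libraries was 2.99%. With an assumed value of 10%, under which 29.1% of all genes passed, PELP1 and NOL9 were called, and TEX10 (adjusted p = 0.181), CHTOP (0.339), SENP3 (0.27) and MDN1 (0.562) were not. With 20%, under which 8.85% passed, PELP1 alone was called, and NOL9 had an adjusted p of 0.306.

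**Figure D3:**
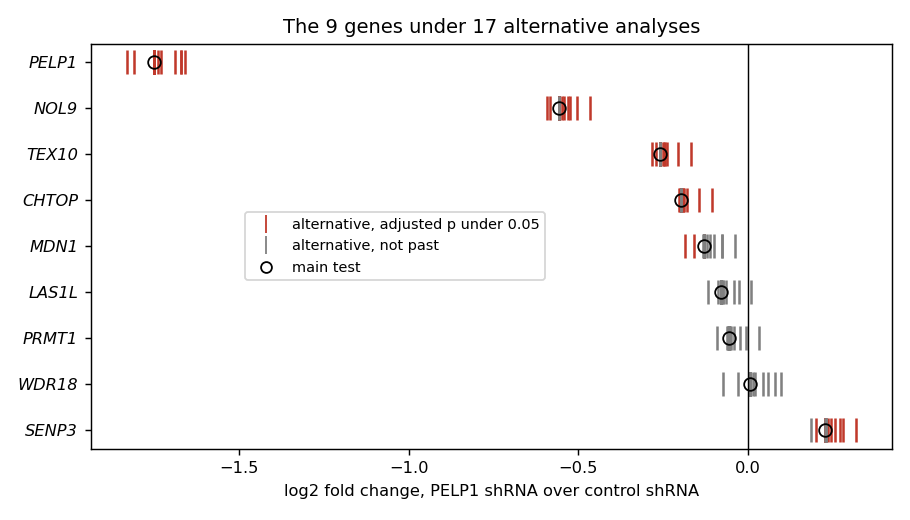
Log2 fold change of PELP1 shRNA over control shRNA (x axis) for the 9 genes in the main test (circles) and in 17 alternative analyses (ticks, red where the adjusted p was under 0.05). PELP1 kept to −1.83 to −1.66 and NOL9 to −0.59 to −0.47, while the ticks of WDR18, LAS1L and PRMT1 fell on both sides of 0.

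Ratios of counts within a library need no scaling between libraries, and those with PELP1 on top restate its fall. For each TEX10 read there were 0.612 and 0.54 PELP1 reads in the PELP1 shRNA libraries and 1.51 and 1.72 in the control shRNA libraries. Per WDR18 read there were 0.558 and 0.556 PELP1 reads against 1.83 and 1.92. Relative to NOL9, the partner that fell most, PELP1 stood at 1.81 and 1.7 reads in the knockdown libraries and 3.88 and 4.12 in the controls. The ratio of PELP1 reads was lower in both knockdown libraries for all 8 partners. That follows from the fall of PELP1 by 1.75 on the log2 scale, as no partner fell by more than 0.56. In absolute size 2.63% of tested genes moved more than PELP1, so almost any gene below the line would give a lower ratio. Among the partners themselves, NOL9 per LAS1L stood at 0.447 and 0.422 with the PELP1 shRNA and at 0.61 and 0.601 with the control shRNA. TEX10 per WDR18 stood at 0.911 and 1.03 against 1.21 and 1.12. CHTOP per PRMT1 stood at 0.382 in both knockdown libraries and at 0.429 and 0.413 in the controls. These ratios are descriptions, given without a test.

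Scaled by gene length, the 9 messages spanned a wide range. With the control shRNA, CPM per kilobase of exon union was 56.1 ± 1.86 for PRMT1, 41.2 ± 1.43 for WDR18, 26.9 ± 1.83 for PELP1, 20.1 ± 0.113 for CHTOP and 15.1 ± 0.341 for TEX10 (SD, n = 2). SENP3 followed at 7.13 ± 0.191, NOL9 at 6.07 ± 0.154, LAS1L at 5.81 ± 0.204 and MDN1 at 1.89 ± 0.0542 (SD, n = 2). NOL9 and LAS1L were close neighbours in that order, with 5.96 and 6.18 against 5.66 and 5.95 per kilobase in the control libraries. With the PELP1 shRNA, the length-scaled level of PELP1 was 8.0 ± 0.631 (SD, n = 2), sixth in the order and level with SENP3 at 8.37 ± 0.346 (SD, n = 2). The libraries of these genes overlapped, with PELP1 at 8.45 and 7.56 and SENP3 at 8.13 and 8.62 per kilobase. If all SENP3 reads are divided by only the 2114 exonic bases that it does not share, the values are higher. They are 14.4 ± 0.594 with the PELP1 shRNA and 12.2 ± 0.327 with the control shRNA (SD, n = 2). The reads are the same and only the length differs, so this is not a level measured over those bases. With the longest transcript as the length, control levels were 44.3 for CHTOP and 34.8 for PELP1, and 9.63 for LAS1L and 6.66 for NOL9, so both orders turned. The union counts every annotated exon, used or not, and for LAS1L it came to 12555 bases against 2470 in the canonical transcript.

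**Figure D4:**
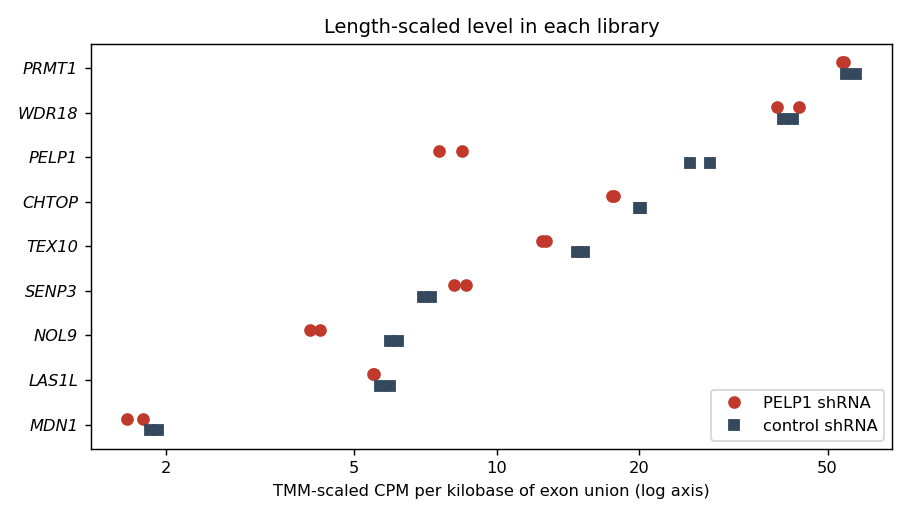
TMM-scaled CPM per kilobase of exon union (x axis, log scale) in each PELP1 shRNA library (circles) and control shRNA library (squares). PELP1 stood at 7.56 and 8.45 against 25.6 and 28.2, and PRMT1 and WDR18 were the most abundant per length in both groups.

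Of the 4 partners called lower, the promoters of NOL9, TEX10 and CHTOP are shown, beside that of SENP3, the partner called higher. MDN1, whose call was lost in most alternatives, is left out of the print, and its window holds CACGTG at 2 places. RefSeq start sites gave 300-base windows for all 9 genes, 250 bases before and 50 after the start, with a second window for TEX10 and WDR18, and each window matched GRCh37 (hg19) once. RefSeq gives the windows in its GRCh38.p14 table, and the coordinates here are those of the hg19 match. Printed are the 250 bases before the start, read 5′ to 3′ on the gene's strand, of NOL9 (chr1:6614574-6614823, minus strand), TEX10 (chr9:103115225-103115474, minus strand), CHTOP (chr1:153606292-153606541, plus strand) and SENP3 (chr17:7464986-7465235, plus strand). Capitals mark the E-box CACGTG, the element CCAAT and the ETS-type motif CCGGAAG, each on either strand.
NOL9: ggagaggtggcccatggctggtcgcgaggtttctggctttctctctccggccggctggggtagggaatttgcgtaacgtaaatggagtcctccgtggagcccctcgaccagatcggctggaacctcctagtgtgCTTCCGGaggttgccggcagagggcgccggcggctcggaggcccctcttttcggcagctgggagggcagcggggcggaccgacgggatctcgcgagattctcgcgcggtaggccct
TEX10: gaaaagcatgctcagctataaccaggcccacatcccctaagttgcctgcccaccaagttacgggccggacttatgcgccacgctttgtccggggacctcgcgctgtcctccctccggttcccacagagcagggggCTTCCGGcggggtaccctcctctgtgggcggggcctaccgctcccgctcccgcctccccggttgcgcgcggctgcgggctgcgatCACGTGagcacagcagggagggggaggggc
CHTOP: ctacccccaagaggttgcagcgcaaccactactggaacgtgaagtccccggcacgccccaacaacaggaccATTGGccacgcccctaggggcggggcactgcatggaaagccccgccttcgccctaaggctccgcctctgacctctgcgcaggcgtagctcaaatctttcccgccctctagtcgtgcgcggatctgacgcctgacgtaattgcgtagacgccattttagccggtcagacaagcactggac
SENP3: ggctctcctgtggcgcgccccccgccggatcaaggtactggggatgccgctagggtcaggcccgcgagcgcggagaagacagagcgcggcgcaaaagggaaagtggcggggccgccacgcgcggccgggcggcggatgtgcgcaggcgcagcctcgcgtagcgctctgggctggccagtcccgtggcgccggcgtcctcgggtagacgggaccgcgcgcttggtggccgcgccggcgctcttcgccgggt
NOL9 and TEX10 both hold CCGGAAG on the reverse strand, beginning 116 and 115 bases before the start, and TEX10 holds CACGTG 30 bases before it. CHTOP holds only CCAAT, on the reverse strand, and SENP3 holds none of these letters in the window.

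The motifs were chosen after the sequences had been read, and no motif marked all the genes that fell. CACGTG was in the 300-base windows of 3 of 9 genes (PELP1, TEX10 and MDN1) and of 8.77% of 27305 genes with a window. CCGGAAG was in 3 of 9 (TEX10, LAS1L and NOL9) and 12.2% of genes. CCAAT was in 3 of 9 (LAS1L, CHTOP and PRMT1) and 39.7% of genes. AAGATGG, the core of a motif bound by YY1, was in 3 of 9 (PELP1, WDR18 and PRMT1) and in 7.11% of genes. CCGGAAG and AAGATGG can overlap by their AAG, and no window of the 9 genes held both. Of those 3 genes PELP1 is the target of the shRNA, and WDR18 and PRMT1 did not pass the test. Their sites lie just after the start and are shown with AAGATGG in capitals, for PELP1 at chr17:4607392-4607416 (minus strand), WDR18 at chr19:984344-984368 (plus strand) and PRMT1 at chr19:50180528-50180552 (plus strand).
PELP1: ccgggggAAGATGGcggcagccgtt
WDR18: ggaaggcAAGATGGcggcgcccatg
PRMT1: gcgggtgAAGATGGcggcagccgag
The letters hold an ATG, which can also be a start codon. A match is a description of the letters, and binding was not measured.

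Genes of large subunit maturation, taken as a whole list and not split by step, were more often called lower than higher. Of 40 large subunit maturation factors, 20 were lower, 6 were higher and 14 missed the threshold, and their median was −0.17 on the log2 scale beside 0.00 over all genes tested. These were 50% lower and 15% higher, where 29.5% and 28.6% of all genes tested were. With an assumed variation of 10% the calls of that list came to 7 lower and 1 higher, and against a 1.5-fold change to 2, both lower. With library size alone 18 were lower and 10 higher, where 3305 of all genes tested were lower and 5681 higher. BOP1, a partner of PES1 and WDR12 in an earlier assembly complex, had 4.10 ± 0.875 CPM with the PELP1 shRNA and 8.40 ± 0.322 CPM with the control shRNA (SD, n = 2; log2 fold change −1.04 ± 0.14, SE, edgeR FDR = 2.46e-09). BOP1 was scarce, with 105 and 130 counts against 191 and 222. Its partners did not change alike, as PES1 was called lower by only 0.20 and WDR12 was not called (0.05, edgeR FDR = 0.42). MRTO4, which holds the place of the ribosomal stalk protein, had 89.9 ± 3.14 and 145 ± 2.11 CPM in the same order of groups (SD, n = 2; −0.69). EFTUD1, the GTPase that releases the anti-association factor eIF6, rose to 50.5 ± 0.642 CPM, against 35.1 ± 2.16 CPM with the control shRNA (SD, n = 2; 0.52). Of 19 tested genes of nucleolar scaffolds and markers, 12 were lower, 1 higher and 6 did not pass (median −0.16), or 63.2% lower and 5.26% higher. With an assumed variation of 10% the calls of these came to 5, all lower, and with library size alone 9 were lower and 4 higher. NPM1, a nucleolar chaperone and a SENP3 substrate, had 388 and 418 CPM with the PELP1 shRNA and 475 and 447 CPM with the control shRNA (log2 fold change −0.19 ± 0.04, SE, edgeR FDR = 1.25e-05). The deubiquitinase gene USP36 fell by 0.61, URB1 by 0.58 and RRP1 by 0.54 on the log2 scale.

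Relatives of the processing enzymes and of MDN1 were called in both directions, as were all genes tested (29.5% lower and 28.6% higher). Of 19 tested genes of RNA end processing, 9 were lower, 7 higher and 3 did not pass (median −0.08), or 47.4% lower and 36.8% higher. Both shares are above those of all genes tested, which were not matched to the list for level. With a filter at 5 CPM in 2 libraries, 3738 of 11497 genes were lower and 3676 higher, and this list kept 9 lower and 7 higher. With an assumed variation of 10% the calls of that list came to 4 lower and 1 higher. The exosome genes EXOSC6 and EXOSC2 fell by 0.58 and 0.54 in log2 units, EXOSC2 to 75.7 ± 1.17 CPM, against 110.0 ± 2.58 CPM with the control shRNA (SD, n = 2). Of 15 AAA ATPase and dynein-like genes, 6 were lower, 2 higher and 7 did not pass (median −0.04), or 40% lower and 13.3% higher, and with an assumed variation of 10% the calls came to 2 lower and 1 higher. The dynein heavy chain gene DYNC1H1 had 569 ± 10.9 CPM with the PELP1 shRNA and 965 ± 6.01 CPM with the control shRNA (SD, n = 2; −0.76), and ATAD3A fell by 0.36 on the log2 scale. RUVBL1, an ATPase of several assembly machines, rose to 245 ± 1.89 CPM, against 173 ± 3.52 CPM with the control shRNA (SD, n = 2; 0.50).

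Genes of the SUMO pathway were called higher more often than lower, with small changes. Of 24 tested, 11 were higher, 2 were lower and 11 missed the threshold (median 0.12), so 45.8% were higher and 8.33% lower, where over all genes tested these shares were 28.6% and 29.5%. With an assumed variation of 10% the calls came to 1 higher and 1 lower, and none passed at 20% or against a 1.5-fold change. With library size alone, which raised the fold change of the median gene by 0.09, 18 were higher and 2 lower. Under that scaling 5681 of all genes tested were higher and 3305 lower. Of the other SENP protease genes, looked at together after their values were seen, SENP1 (0.22), SENP2 (0.34), SENP5 (0.21) and SENP6 (0.22) were called higher and SENP7 (0.02, edgeR FDR = 0.887) was not. SENP2, a protease of the nuclear pore, had 96.9 ± 2.38 CPM with the PELP1 shRNA and 76.4 ± 0.119 CPM with the control shRNA (SD, n = 2; edgeR FDR = 1.14e-08). USPL1, a SUMO protease of another family, rose by 0.52, and RNF111, a ubiquitin ligase that reads SUMO chains, fell by 0.38 on the log2 scale. SENP8 acts on NEDD8 rather than SUMO. It stood at 6.29 ± 1.06 and 4.81 ± 0.393 CPM (SD, n = 2; 0.38, edgeR FDR = 0.0216), and that call was lost with DESeq2 (adjusted p = 0.21) and without PELP1 shRNA replicate 2 (0.20, adjusted p = 0.353), as well as when control shRNA replicate 1 was left out (adjusted p = 0.144).

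Around CHTOP, mRNA export genes were more often lower than higher in the main test, and around PRMT1 the calls were even. Of 22 mRNA export genes, 10 were lower, 5 higher and 7 did not pass (median −0.09). That is 45.5% lower and 22.7% higher, beside 29.5% and 28.6% over all genes tested. With library size alone 4 were lower and 7 higher, without PELP1 shRNA replicate 1 the calls came to 8, with 5 lower and 3 higher, and with an assumed variation of 10% to 2 lower and 1 higher. ENY2 and MCM3AP, subunits of a complex at the nuclear pore, fell by 0.43 and 0.41 in log2 units. FYTTD1, an export adaptor, rose by 0.37. Of 14 tested arginine methyltransferase and cofactor genes, 4 were lower, 4 higher and 6 did not pass (median 0.00), and with an assumed variation of 10% the calls came to 2 lower and 1 higher. PRMT2 had 51.8 ± 2.1 CPM with the PELP1 shRNA and 76.3 ± 0.259 CPM with the control shRNA (SD, n = 2; −0.56), and PRMT7 stood at 15.9 ± 1.95 and 23.4 ± 0.572 CPM (SD, n = 2; −0.56). BTG2, an antiproliferative protein that binds PRMT1, rose to 9.59 ± 0.246 CPM, against 3.90 ± 0.236 CPM with the control shRNA (SD, n = 2; 1.30, edgeR FDR = 6.56e-13).

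Described binding partners of PELP1 outside the nucleolus were called in each direction about as often as all genes tested. Of 31 tested, 11 were lower, 8 higher and 12 did not pass (median −0.03), or 35.5% lower and 25.8% higher beside 29.5% and 28.6% over all genes. With an assumed variation of 10%, 4 were lower and 4 higher. FHL2, a LIM-domain coregulator, had 142 ± 4.87 CPM with the PELP1 shRNA and 278 ± 8.79 CPM with the control shRNA (SD, n = 2; −0.97, edgeR FDR = 6.79e-31). KDM1A, the histone demethylase LSD1, had 161 ± 3.99 and 228 ± 6.48 CPM in the same order (SD, n = 2; −0.50). PIK3R1, the regulatory subunit of phosphoinositide 3-kinase, rose to 71.3 ± 0.615 CPM, against 44.9 ± 1.58 CPM with the control shRNA (SD, n = 2; 0.67). The receptor genes that stand farthest to the right in the plot of gene lists were scarce and are named after their values were seen. ESR1, the estrogen receptor that PELP1 is best known to bind, had 42 and 26 counts with the PELP1 shRNA and 8 and 9 counts with the control shRNA, all under 1.5 CPM (log2 fold change 1.75 ± 0.40, SE, edgeR FDR = 0.000113). PGR, the progesterone receptor, had 13 and 13 counts against 2 and 1, and its call (edgeR FDR = 0.00076) was lost with DESeq2 (adjusted p = 0.0559).

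**Figure D5:**
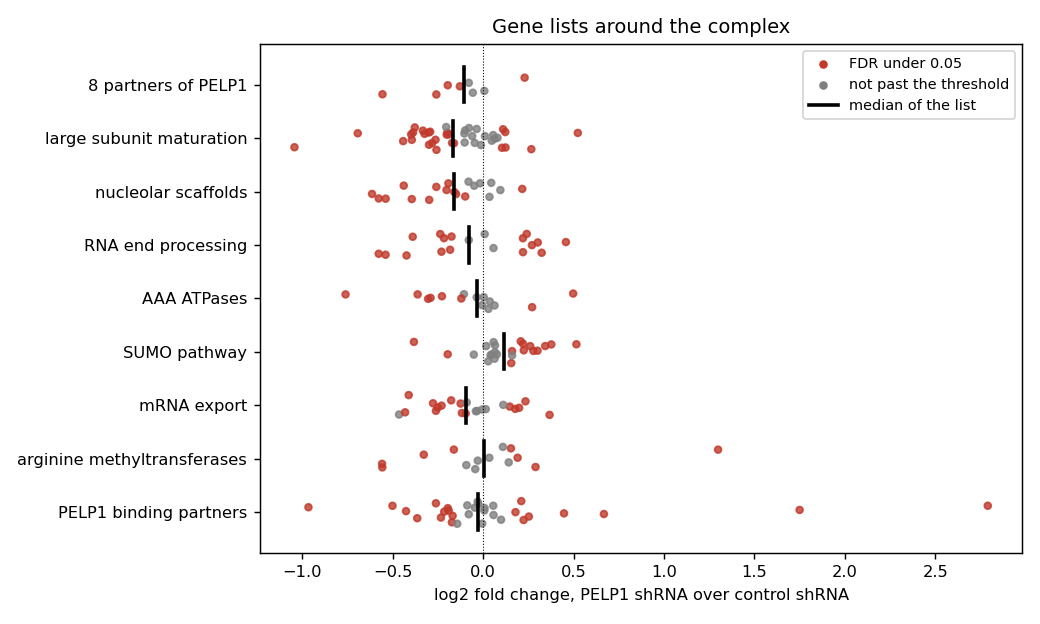
Log2 fold change of PELP1 shRNA over control shRNA (x axis) of each tested gene in the 8 partners of PELP1 and in 8 gene lists, red where FDR was under 0.05, with the list's median as a bar. Medians lay at −0.17 for large subunit maturation, −0.16 for nucleolar scaffolds and 0.12 for the SUMO pathway.

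The genes whose pattern was most like that of PELP1 were sought among 8183 genes with at least 20 CPM, by the Euclidean distance over the 4 libraries of log2(CPM + 1) values centred per gene. FGD5, an exchange factor for CDC42, came first (distance 0.097), with 16.3 and 15.0 CPM with the PELP1 shRNA and 51.5 and 52.6 CPM with the control shRNA. MAGEB2 (0.131), SLC9A3R2 (0.133) and the Notch ligand gene JAG1 (0.147) were also among the nearest. None of the 8 partners was among the 5 nearest. The log2 fold changes of these 4 genes lay between −1.84 and −1.63, and with 2 libraries a group the distance mostly ranks genes by the size of that difference.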

How the data were processed

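Raw read counts per gene symbol were deposited for 4 libraries, with no normalisation by the authors. Per the labels' protocols, libraries were made with a TruSeq total RNA kit and read as 50 bp single ends. Per the series' design text and the submitters' processing notes, reads went through TopHat2 2.0.8b against hg19 and then HTSeq. The sources used here do not give HTSeq's version, strand setting or annotation, so a gene and an overlapping antisense gene cannot be told apart. The 5 rows that name no gene were left out, of which alignments that were not unique made up 29.38% to 30.82% of a file. The test was edgeR 4.0.16 (R 4.3.3), quasi-likelihood with robust dispersions, TMM scaling and filterByExpr, two-sided, FDR threshold 0.05 over all genes. DESeq2 1.42.0 and limma 3.58.1 (voom) were alternatives. SEs come from the F statistic. Gene models were GENCODE 44 on hg19. The fit was tested on simulated data. Members, gene lists and the rule for named genes (all members, overlapping genes, up to 3 called genes a list with at least 5 CPM and no overlap, 5 genes most like PELP1) were chosen with earlier results of these data known. Some genes that this rule selects are not reported here. Lists carry no test, and all genes tested, the background beside them, were not matched to them for level. Each library counted once. Chi-square per degree of freedom was 2.374 within the PELP1 shRNA pair and 2.469 within the control pair, against 56.13 to 61.96 between groups. Such values do not show whether the duplicates came from separate cultures.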

Additional observations from a re-analysis of the deposited data

How the results depend on the processing

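The fall of PELP1 kept its direction and passed the threshold in all 17 alternatives, with log2 fold changes of −1.83 to −1.66, and of −1.83 to −1.67 when 1 library was left out. The number of the 9 genes called was 6, and 4 to 6 without 1 library. It was 1 against a 1.5-fold change, 2 with an assumed biological variation of 10% and 1 with 20%, where all genes called came to 1442, 4363 and 1325 in place of 8700. Without 1 library 7420 to 7757 genes were called. DESeq2 called 4 of the 9 and 6352 genes. With the replicate block 5 of the 9 and 8161 genes were called, and MDN1 was the call lost. Same-numbered libraries deviated in opposite senses (correlation −0.174 over 9999 genes with at least 10 CPM). With the crossed pairing, chosen after the data were seen, 6 of the 9 and 9284 genes were called. Scaling by library size alone gave 5681 higher and 3305 lower calls, 63.2% higher in place of 49.1%, and LAS1L (0.0106) and PRMT1 (0.033) changed sign. With 1 library left out, WDR18 ranged from −0.0734 to 0.0801, SENP7 from −0.00498 to 0.0393 and the SENP3-EIF4A1 row from −0.0363 to 0.357. WDR18 turned negative without PELP1 shRNA replicate 1 or control shRNA replicate 1 (−0.0292). None of these was called in any setting. With library size alone, the medians of RNA end processing, AAA ATPases and PELP1 binding partners turned positive. Depth limits SENP3-EIF4A1, at 12 to 18 counts a library.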
